A study of Homo sapiens with 12 samples.

Results

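The genes described here encode the machinery that docks, primes, fuses and recovers secretory vesicles, first of all the synaptic vesicle. They were taken by symbol: 42 of the 58735 genes in the deposited expression table carry a name on the list. No rule on measured values was used, but the list was made with earlier results of these data known. By role they are 7 genes of the SNARE fusion machinery, 11 calcium sensors and priming factors, 8 proteins of the vesicle membrane or its surface, 4 RAB3 GTPases, 8 active zone proteins and 4 proteins of vesicle retrieval. Levels are in FPKM (fragments per kilobase of gene length, scaled for depth, so that levels of different genes are compared per length). The 34 members with a mean of at least 0.5 FPKM over all 12 libraries were tested, and the other 8 (SYT5, SYT13, SV2B, RIMS1, ERC2, PPFIA2, AMPH and SH3GL2) are given by their ranges. The nearest members on either side of that limit were SYTL4, with a mean of 0.842 FPKM, and SYT5, with 0.371 FPKM.

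The RNA came from 2 lines of human neuroblastoma, a childhood tumour of sympathetic precursors, grown with a control hairpin RNA or with a hairpin meant to knock down TSPYL5, a gene of the nucleosome assembly protein family. Each of the 4 groups held 3 libraries: SK-N-SH control (titled shNC, genotype WT), SK-N-SH knockdown (titled shL5, genotype TSPYL5 knockdown), and control and knockdown of a second line with the same titles and genotypes. The treatment label was None in every library, so apart from the hairpins the groups shared their conditions as far as the labels say. Titles name the other line SK_N_BE2 while its source and cell line labels say SH-SY5Y, so it is called the second line below. The labels do not say how many hairpins, clones or separate cultures stand behind the libraries, so each p-value speaks only of the spread among libraries, which may be technical.

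The libraries did not all go with their labels. TSPYL5 stood at 13.1, 13.4 and 12.2 FPKM in control and 17.1, 18.3 and 17.8 in knockdown libraries of SK-N-SH, and at 24.0, 24.4 and 25.8 in control and 13.3, 12.4 and 12.6 in knockdown libraries of the second line, so it was lower under the knockdown label in the second line and higher under it in SK-N-SH. MYCN was at 988 to 1082 FPKM in SK-N-SH knockdown and at 1006 to 1072 in second line control, but at 0 to 0.0813 in SK-N-SH control and at 0 in all 3 second line knockdown libraries. Over the 15856 genes tested, log2 levels of SK-N-SH knockdown correlated with those of second line control at r = 0.986 to 0.987 and with those of SK-N-SH control at 0.705 to 0.724 (across genes, which are not independent replicates). Second line knockdown correlated with SK-N-SH control at 0.960 to 0.975 and with its own control at 0.692 to 0.721. Every group name below therefore means the libraries labelled so, and each comparison within a labelled line is followed by the comparisons across lines. Depth was 15425460 to 19249018 reads per library.

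In a regulated secretory cell, the vesicle SNARE synaptobrevin and the plasma membrane SNAREs SNAP25 and syntaxin 1 zip together to fuse the membranes, after priming by UNC13 proteins and under the clamp of complexins, and synaptotagmins trigger the last step when calcium enters. RAB3 GTPases and the scaffolds of the active zone hold vesicles at the release site, and dynamin and synaptojanin return the membrane. Neuroblastoma cells of the sympathetic lineage store catecholamines in dense core vesicles and use the same machinery. Many genes of neuronal secretion carry near their start the RE1 element, the sequence read by the repressor REST.

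RefSeq start-site windows (build GRCh38.p14, 250 bases before to 50 bases after the start) were found for 36 of the 42 members. The upstream sequences of 5 members, chosen after their values were seen, are shown as examples of both orders of groups described below: SYN1, UNC13A and RAB3A were high where RAB3B and SNPH were low. They run 5′ to 3′ on the gene's strand, cut back where the gene model of the deposited table starts earlier, and capitals mark matches to the motifs searched. SYN1 is chrX:47619944-47620107 on the minus strand, UNC13A chr19:17688366-17688604 on the minus strand, RAB3A chr19:18204075-18204292 on the minus strand, RAB3B chr1:51990765-51990950 on the minus strand and SNPH chr20:1266044-1266279 on the plus strand.
SYN1: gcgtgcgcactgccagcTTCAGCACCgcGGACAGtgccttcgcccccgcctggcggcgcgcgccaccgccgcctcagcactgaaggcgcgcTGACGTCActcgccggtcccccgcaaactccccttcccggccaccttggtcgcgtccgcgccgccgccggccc
UNC13A: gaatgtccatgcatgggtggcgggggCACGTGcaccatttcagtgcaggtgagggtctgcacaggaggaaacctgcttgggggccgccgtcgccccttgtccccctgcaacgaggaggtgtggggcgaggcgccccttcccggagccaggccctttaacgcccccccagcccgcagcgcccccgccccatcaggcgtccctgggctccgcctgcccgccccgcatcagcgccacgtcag
RAB3A: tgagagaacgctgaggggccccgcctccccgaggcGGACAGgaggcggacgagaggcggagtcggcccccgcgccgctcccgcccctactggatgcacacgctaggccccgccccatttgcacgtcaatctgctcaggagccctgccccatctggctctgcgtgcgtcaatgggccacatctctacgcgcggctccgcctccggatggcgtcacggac
RAB3B: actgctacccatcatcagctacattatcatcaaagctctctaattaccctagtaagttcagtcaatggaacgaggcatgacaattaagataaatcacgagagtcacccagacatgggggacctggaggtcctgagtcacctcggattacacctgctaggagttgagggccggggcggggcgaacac
SNPH: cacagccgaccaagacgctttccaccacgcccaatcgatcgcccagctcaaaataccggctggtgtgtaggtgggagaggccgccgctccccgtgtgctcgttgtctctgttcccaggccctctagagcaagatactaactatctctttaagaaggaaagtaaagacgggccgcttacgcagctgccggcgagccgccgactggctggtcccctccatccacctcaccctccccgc

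The motifs were searched on both strands of the whole window. The left part of RE1, TTCAGCACC, was in 0.403% of all 27305 windows and in those of 2 members, SYN1 (233 bases before the start, written as -233) and UNC13A (at 7 after the start, on the opposite strand and outside the stretch printed). The right part, GGACAG, was in 20.5% of all windows and in 9 members' windows (BSN, RAB3A, RAB3C, SH3GL2, SV2A, SYN1, SYNJ1, SYT1 and UNC13A). Both parts joined by 2 bases (TTCAGCACCNNGGACAG) were in 3 windows, 0.0110% of all, and SYN1 was the only member among them. The CRE, TGACGTCA, lay at -159 in SYN1 and also in SH3GL2 (1.98% of all windows), and the E-box, CACGTG, at -224 in UNC13A (7.43%). The printed stretches of RAB3B and SNPH held none of these letters. A match is a description of the sequence only.

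Within the labelled lines most members differed between knockdown and control, in opposite directions in the 2 lines. In SK-N-SH, 23 of 34 tested members rose under knockdown (67.6% of them, beside 40.7% of all 15856 genes tested) and 10 fell (29.4%, beside 39.0%), with 1 not called, by limma at an adjusted p under 0.05. The median log2 fold of the members was 1.07, beside 0.02 over all genes tested. In the second line 7 rose (20.6%, beside 39.9%) and 25 fell (73.5%, beside 40.2%), with 2 not called and a median of -1.34 beside -0.02. Of the 42 members, 23 rose in SK-N-SH and fell in the second line, 7 fell and then rose (VAMP1, NSF, SNPH, SYT11, SV2A, SYNGR3 and RAB3B), VAMP2 fell in both, STX1A and RAB3D fell in SK-N-SH without a call in the second line, and SYTL4 fell in the second line without a call in SK-N-SH. Because the level limit was on the mean over all libraries, a member near 0 in 6 libraries entered only through the other 6 and had to differ, so these counts are a description. The difference between the effects in the 2 lines was itself positive in 9 members (26.5%, beside 41.8% of all genes) and negative in 24 (70.6%, beside 43.1%), by the limma interaction at an adjusted p under 0.05. These counts are a description for the same reason. In bulk RNA, fewer cells of a type and less RNA per cell cannot be told apart.

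**Figure D1:**
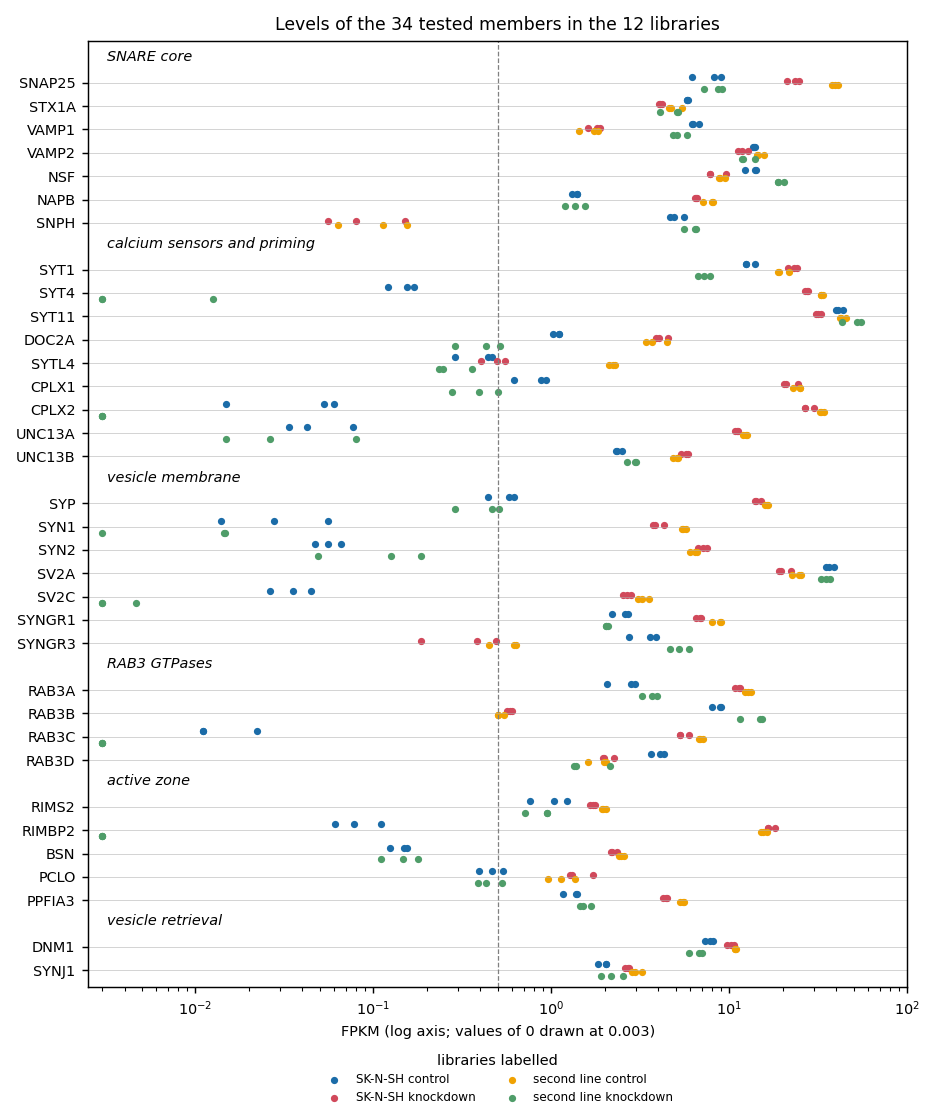
FPKM (log axis) of the 34 tested members, by role, in each of the 12 libraries; each point is 1 library, coloured by its label, values of 0 are drawn at the left edge and the dashed line marks 0.5 FPKM. For most members the points of SK-N-SH knockdown lie with those of second line control and the points of second line knockdown with those of SK-N-SH control, as for CPLX2 at 26.5 to 34.3 FPKM in the first 2 groups and 0 to 0.0605 in the other 2.

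Markers of the cell's own lineage moved with the members. All 7 sympathetic neuroblast markers rose under knockdown in SK-N-SH (beside 40.7% of all genes tested) and fell in the second line (beside 40.2%). Their sum was 81.0 to 93.6 FPKM (control) and 847 to 900.5 (knockdown) in SK-N-SH, then 948 to 986 (control) and 66.2 to 82.9 (knockdown) in the second line. TH, the first enzyme of catecholamine synthesis, was at 0 in all SK-N-SH control libraries and in all second line knockdown libraries, although every library is labelled neuroblastoma. Of 7 mesenchymal markers 6 did the reverse (beside 39.0% of all genes falling in SK-N-SH and 39.9% rising in the second line) and TWIST1 did not. Their sums were 1991 to 2284, 247 to 253, 232 to 250.1 and 1412 to 1635 FPKM in the same order. Schwann, epithelial, and blood and endothelial markers summed to at most 2.42, 1.78 and 1.41 FPKM in any library. The part of these differences in the members' results was not tested.

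Among the SNARE genes, which fuse the 2 membranes, SNAP25 rose 2.96-fold under knockdown in SK-N-SH and fell 4.73-fold in the second line. SNAP25 (ENSG00000132639, chr20:10218830-10307418 on GRCh38, plus strand), the plasma membrane SNARE that supplies a pair of helices to the fusion bundle, stood at 6.14, 8.98 and 8.22 FPKM in control and 24.6, 21.1 and 23.3 in knockdown libraries of SK-N-SH, and at 37.9, 39.5 and 40.7 in control and 9.11, 7.25 and 8.63 in knockdown libraries of the second line. The groups compared within each line did not overlap, and the log2 folds were 1.46 ± 0.12 (SE; limma adjusted p = 2.65e-07) and -2.12 ± 0.12 (limma adjusted p = 9.22e-09). NAPB, the neuronal form of the SNAP adaptor that lets NSF take SNARE bundles apart, stood at 1.30, 1.40 and 1.39 FPKM in control and 6.51, 6.58 and 6.40 in knockdown libraries of SK-N-SH, and at 8.05, 8.10 and 7.13 in control and 1.19, 1.36 and 1.55 in knockdown libraries of the second line. It was 4.76-fold higher under knockdown in SK-N-SH and 5.69-fold lower in the second line.

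The other plasma membrane SNARE measured, syntaxin 1A (STX1A), differed far less: it stood at 5.81, 5.90 and 5.77 FPKM in control and 4.20, 4.05 and 4.07 in knockdown libraries of SK-N-SH, and at 4.72, 5.42 and 4.56 in control and 4.07, 5.14 and 5.06 in knockdown libraries of the second line. It was 1.42-fold lower under knockdown in SK-N-SH (limma adjusted p = 0.000317), while in the second line the groups overlapped and the log2 fold was -0.04 ± 0.08. Exons of STX1A share 17.9% of their bases with BUD23 on the opposite strand, so reads of these genes cannot be told apart if counting ignored strand. VAMP2, the main synaptobrevin of brain synapses, stood at 13.6, 13.8 and 13.9 FPKM in control and 12.7, 11.2 and 11.8 in knockdown libraries of SK-N-SH, and at 14.4, 15.6 and 14.5 in control and 12, 14.0 and 11.8 in knockdown libraries of the second line. It fell under knockdown in both lines, 1.16-fold in SK-N-SH and then 1.18-fold (limma adjusted p = 0.0172 and 0.00883). Without SK-N-SH knockdown replicate 2 the first of these calls was lost (log2 fold -0.16, limma adjusted p = 0.0716).

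VAMP1, the other synaptobrevin, went against SNAP25, at 6.76, 6.25 and 6.19 FPKM in control and 1.81, 1.88 and 1.60 in knockdown libraries of SK-N-SH, and at 1.44, 1.83 and 1.74 in control and 5.08, 5.80 and 4.82 in knockdown libraries of the second line. It was 3.63-fold lower under knockdown in SK-N-SH and 3.14-fold higher in the second line, with no overlap of libraries in either. NSF, the ATPase that recycles SNARE bundles, stood at 12.2, 14.2 and 14.0 FPKM in control and 9.55, 7.76 and 7.83 in knockdown libraries of SK-N-SH, and at 8.72, 9.48 and 8.91 in control and 20.2, 18.8 and 18.8 in knockdown libraries of the second line. It fell 1.61-fold under knockdown in SK-N-SH and rose 2.13-fold in the second line, and a near-identical pseudogene, NSFP1, makes the level of NSF uncertain. SNPH, syntaphilin, which binds syntaxin and anchors axonal mitochondria, stood at 4.67, 5.60 and 4.92 FPKM in control and 0.0796, 0.151 and 0.0558 in knockdown libraries of SK-N-SH, and at 0.154, 0.113 and 0.0634 in control and 6.39, 5.54 and 6.47 in knockdown libraries of the second line. SNPH was 53.0-fold lower under knockdown in SK-N-SH and 55.7-fold higher in the second line, the largest opposed change of the SNARE group, resting on 28 and 32 reads over the 3 libraries of the low groups. The SNARE group as a whole summed to 53.7 ± 2.94, 55.8 ± 3.43, 77.7 ± 2.33 and 57.7 ± 0.440 FPKM (SD, n = 3) in the order SK-N-SH control, SK-N-SH knockdown, second line control and second line knockdown.

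Of the calcium sensors and priming factors, 7 of 9 tested rose (beside 40.7% of all genes tested) and 1 fell (beside 39.0%) under knockdown in SK-N-SH. In the second line 1 rose (beside 39.9%) and 8 fell (beside 40.2%). CPLX2, SYT4 and UNC13A, near 0 in SK-N-SH control and second line knockdown, passed the level limit only through the other groups and had to differ. CPLX2 (ENSG00000145920, chr5:175796310-175884020, plus strand), a complexin that clamps and supports SNARE bundles, stood at 0.0605, 0.0149 and 0.0528 FPKM in control and 26.5, 26.7 and 29.8 in knockdown libraries of SK-N-SH, and at 34.3, 33.0 and 32.2 in control and 0, 0 and 0 in knockdown libraries of the second line. It was 648-fold higher under knockdown in SK-N-SH, resting on 17 reads over the control libraries. In second line knockdown it had no read in any library, and against 3 reads over that group (0.00800 FPKM) it was at least 4148-fold lower than in its control. CPLX1, its close relative, reached 20.2 to 25.1 FPKM in the 6 high libraries and 0.277 to 0.932 in the 6 low ones, 26.9-fold higher and 62.0-fold lower.

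SYT4 (ENSG00000132872, chr18:43267878-43277650, minus strand), a synaptotagmin of dense core vesicles that binds little calcium, stood at 0.169, 0.155 and 0.121 FPKM in control and 27.5, 27.7 and 26.6 in knockdown libraries of SK-N-SH, and at 32.9, 32.9 and 33.5 in control and 0.0125, 0 and 0 in knockdown libraries of the second line. It was 184-fold higher under knockdown in SK-N-SH, resting on 37 reads over the control libraries. The second line knockdown group held 1 read of it in all, against 7447 in its control, so no fold is given there. SYT1, the fast calcium sensor of release, was high in every library, at 12.4, 12.5 and 14.0 FPKM in control and 23.9, 23.0 and 21.3 in knockdown libraries of SK-N-SH, and at 21.8, 19.1 and 18.8 in control and 7.26, 6.64 and 7.85 in knockdown libraries of the second line. It rose 1.75-fold in SK-N-SH and fell 2.74-fold in the second line, without overlap. SYT11, a synaptotagmin that does not bind calcium, had the highest mean level of the members in all 4 groups, and stood at 43.8, 39.6 and 41.1 FPKM in control and 30.8, 31.4 and 32.8 in knockdown libraries of SK-N-SH, and at 45.2, 42.4 and 42.1 in control and 43.1, 55.2 and 52.1 in knockdown libraries of the second line. SYT11 fell 1.31-fold in SK-N-SH (limma adjusted p = 0.000914). Its rise in the second line was 1.16-fold with overlapping libraries (log2 fold 0.20 ± 0.08, limma adjusted p = 0.0340). That call was lost with FPKM scaled to an equal sum per library (0.07) or to the upper quartile (0.11), with no level filter (limma adjusted p = 0.0616), with only these 2 groups fitted (0.0815) or with a replicate block (0.0540). It was also lost without second line control replicate 2 (0.19) or 3 (0.18) and without second line knockdown replicate 2 (0.13) or 3 (0.17), and without knockdown replicate 1 the log2 fold was 0.31.

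UNC13A, the neuronal Munc13 that opens syntaxin for priming, was at 10.8 to 12.6 FPKM in second line control and SK-N-SH knockdown and at 0.0149 to 0.0798 in the other 6 libraries, 216-fold higher and 306-fold lower under knockdown. These folds rest on 32 reads over SK-N-SH control and 24 over second line knockdown. UNC13B, the more widely expressed Munc13, was at 2.32 to 2.98 FPKM in the low groups and 4.86 to 5.87 in the high ones, 2.37-fold higher and 1.76-fold lower. In each library's sum of the pair, UNC13A took 2.09 ± 0.957% in SK-N-SH control, 66.0 ± 1.48% in SK-N-SH knockdown, 71.0 ± 1.01% in second line control and 1.35 ± 1.12% in second line knockdown (SD, n = 3). DOC2A, a high-affinity calcium sensor of spontaneous and asynchronous release, stood at 1.10, 1.10 and 1.02 FPKM in control and 4.51, 4.03 and 3.87 in knockdown libraries of SK-N-SH, and at 3.67, 4.46 and 3.40 in control and 0.432, 0.516 and 0.287 in knockdown libraries of the second line. It was 3.85-fold higher and 9.34-fold lower under knockdown.

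SYTL4, granuphilin, which docks dense core granules through RAB27 and RAB3, had another order of groups than most members. It stood at 0.462, 0.441 and 0.288 FPKM in control and 0.550, 0.495 and 0.403 in knockdown libraries of SK-N-SH, and at 2.23, 2.28 and 2.11 in control and 0.247, 0.359 and 0.233 in knockdown libraries of the second line. Second line control alone was above 2 FPKM, and the other 9 libraries lay between 0.233 and 0.550. SYTL4 passed the level limit only through second line control and so had to differ from it. It fell 7.90-fold under knockdown in the second line, and in SK-N-SH the groups overlapped (log2 fold 0.09 ± 0.08, limma adjusted p = 0.326). Exons of SYTL4 share 17.5% of their bases with SRPX2 on the opposite strand, which had a mean of 0.668 FPKM. SYT5 and SYT13, below the level limit, had their highest values in second line control as well, up to 0.887 and 0.799 FPKM, and were at most 0.0890 and 0.0109 FPKM in SK-N-SH control and second line knockdown.

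Of the vesicle membrane genes, SYP, synaptophysin, a major synaptic vesicle glycoprotein, stood at 0.442, 0.578 and 0.616 FPKM in control and 14.2, 13.9 and 15.0 in knockdown libraries of SK-N-SH, and at 16.4, 16.5 and 15.8 in control and 0.511, 0.465 and 0.289 in knockdown libraries of the second line. It was 26.4-fold higher under knockdown in SK-N-SH and 38.5-fold lower in the second line. Synapsin genes, whose proteins tether vesicles into the reserve pool, had the same order of groups. SYN1 stood at 0.0140, 0.0277 and 0.0560 FPKM in control and 3.83, 3.74 and 4.30 in knockdown libraries of SK-N-SH, and at 5.69, 5.50 and 5.45 in control and 0.0145, 0 and 0.0146 in knockdown libraries of the second line. It rose 122-fold in SK-N-SH, where the control libraries held 7 reads of it in all, while only 2 reads of it were counted in the 3 second line knockdown libraries. SYN2 stood at 0.0472, 0.0558 and 0.0659 FPKM in control and 7.53, 7.16 and 6.70 in knockdown libraries of SK-N-SH, and at 6.44, 6.57 and 6.04 in control and 0.186, 0.125 and 0.0491 in knockdown libraries of the second line, 127-fold higher and 53.0-fold lower. The low groups held 18 reads of SYN2 (SK-N-SH control) and 36 (second line knockdown).

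SV2A, the broadly expressed SV2 glycoprotein and the target of levetiracetam, ran the other way at high level: 36.6, 35.1 and 39.0 FPKM in control and 19.1, 19.5 and 22.2 in knockdown libraries of SK-N-SH, and at 25.4, 24.8 and 22.4 in control and 36.7, 34.9 and 33.0 in knockdown libraries of the second line. It fell 1.82-fold under knockdown in SK-N-SH and rose 1.44-fold in the second line, without overlap. SV2C, the SV2 form enriched in the basal ganglia, was at 2.52 to 3.52 FPKM in second line control and SK-N-SH knockdown, at 0.0264 to 0.0446 in SK-N-SH control, and had 1 read over second line knockdown. SV2B had 2 reads in 1 library and none in the other 11. The 2 synaptogyrins, membrane proteins related to synaptophysin, moved in opposite directions. SYNGR1 stood at 2.60, 2.70 and 2.19 FPKM in control and 6.97, 6.49 and 6.89 in knockdown libraries of SK-N-SH, and at 8.97, 8.91 and 7.98 in control and 2.04, 2.02 and 2.09 in knockdown libraries of the second line. SYNGR3 stood at 3.87, 3.59 and 2.75 FPKM in control and 0.382, 0.487 and 0.186 in knockdown libraries of SK-N-SH, and at 0.633, 0.445 and 0.618 in control and 4.66, 5.97 and 5.24 in knockdown libraries of the second line. SYNGR1 took 42.5% of their sum in SK-N-SH control, 95.1% in SK-N-SH knockdown, 93.8% in second line control and 28.1% in second line knockdown.

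The RAB3 GTPases, which recruit effectors such as RIM to the vesicle, differed less in their summed level than in which member made up most of it. The family's sum was 15.3 ± 0.510 FPKM in SK-N-SH control, 19.4 ± 0.681 in SK-N-SH knockdown, 22.0 ± 0.448 in second line control and 19.1 ± 2.03 in second line knockdown (SD, n = 3). RAB3A, the main neuronal form, stood at 2.07, 2.79 and 2.94 FPKM in control and 11.4, 10.8 and 11.5 in knockdown libraries of SK-N-SH, and at 13.3, 12.8 and 12.2 in control and 3.24, 3.94 and 3.68 in knockdown libraries of the second line. Its share of the sum was 17.0 ± 2.68%, 57.9 ± 0.458%, 57.9 ± 1.88% and 18.9 ± 0.410% in that order, and its level was 4.32-fold higher and 3.52-fold lower under knockdown. RAB3B (ENSG00000169213, chr1:51907956-51990764, minus strand), a form of endocrine cells, stood at 9.03, 8.89 and 8.03 FPKM in control and 0.566, 0.586 and 0.605 in knockdown libraries of SK-N-SH, and at 0.505, 0.502 and 0.540 in control and 11.5, 15.3 and 14.9 in knockdown libraries of the second line. RAB3B took 56.7 ± 4.40% of the sum in SK-N-SH control and 72.3 ± 3.71% in second line knockdown, but 3.03 ± 0.123% in SK-N-SH knockdown and 2.34 ± 0.122% in second line control. It was 14.8-fold lower under knockdown in SK-N-SH and 26.9-fold higher in the second line.

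RAB3C, the third neuronal form, stood at 0.0111, 0.0110 and 0.0222 FPKM in control and 5.29, 5.30 and 5.93 in knockdown libraries of SK-N-SH, and at 6.78, 6.81 and 7.10 in control and 0, 0 and 0 in knockdown libraries of the second line. It was 374-fold higher under knockdown in SK-N-SH, resting on 8 reads over the control libraries. It was at least 1173-fold lower in the second line, where no read fell on it in 3 libraries (3 reads over the group would be 0.00588 FPKM). RAB3D, the form of exocrine and endocrine granules, stood at 3.64, 4.07 and 4.32 FPKM in control and 2.25, 1.97 and 1.95 in knockdown libraries of SK-N-SH, and at 1.97, 1.60 and 2.02 in control and 2.14, 1.38 and 1.35 in knockdown libraries of the second line. It was 1.95-fold lower under knockdown in SK-N-SH (limma adjusted p = 8.95e-05), while in the second line the groups overlapped (log2 fold -0.14 ± 0.11). Without second line knockdown replicate 1, RAB3D was called lower there too (log2 fold -0.27, limma adjusted p = 0.0130).

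**Figure D2:**
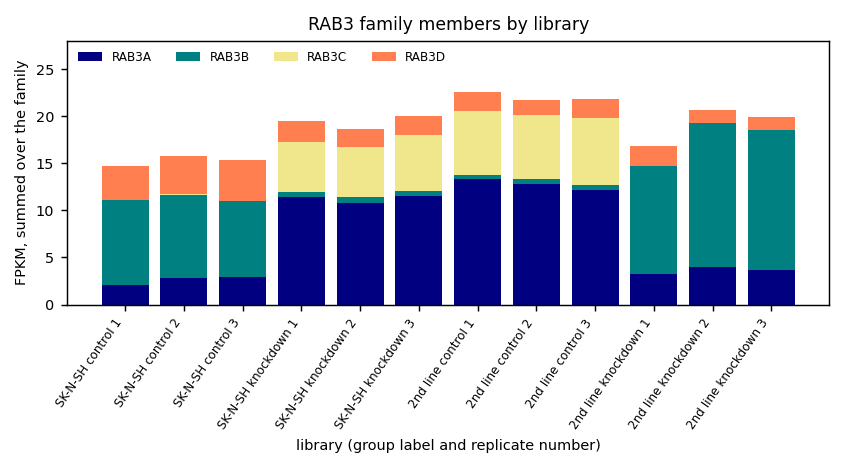
FPKM of RAB3A, RAB3B, RAB3C and RAB3D stacked for each of the 12 libraries, named by label and replicate number. The bars total between 14.7 and 22.6 FPKM, with RAB3B the largest part in SK-N-SH control and second line knockdown and RAB3A the largest in the other 6 libraries.

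At the active zone, the protein grid that ties vesicles and calcium channels together, all 5 tested members rose under knockdown in SK-N-SH and fell in the second line. Of all genes tested, 40.7% rose in SK-N-SH and 40.2% fell in the second line. RIMBP2 and BSN passed the level limit only through the groups where they were high, so they had to differ. RIMBP2 (ENSG00000060709, chr12:130396137-130716281, minus strand), which links RIM to calcium channels, stood at 0.0611, 0.110 and 0.0776 FPKM in control and 18.0, 16.6 and 16.6 in knockdown libraries of SK-N-SH, and at 16.3, 15.4 and 15.1 in control and 0, 0 and 0 in knockdown libraries of the second line. It was 206-fold higher under knockdown in SK-N-SH, resting on 45 reads over the control libraries. In the second line it was at least 2655-fold lower, against a floor of 0.00588 FPKM. BSN, bassoon, a giant scaffold, stood at 0.149, 0.124 and 0.155 FPKM in control and 2.34, 2.20 and 2.16 in knockdown libraries of SK-N-SH, and at 2.47, 2.39 and 2.55 in control and 0.178, 0.146 and 0.110 in knockdown libraries of the second line, 15.7-fold higher and 17.1-fold lower. PPFIA3, a liprin-alpha, stood at 1.16, 1.39 and 1.38 FPKM in control and 4.23, 4.47 and 4.41 in knockdown libraries of SK-N-SH, and at 5.29, 5.58 and 5.52 in control and 1.46, 1.68 and 1.51 in knockdown libraries of the second line, 3.34-fold higher and 3.52-fold lower. RIMS2 and PCLO, a RIM and the bassoon relative piccolo, rose 1.69-fold and 3.08-fold under knockdown in SK-N-SH, and fell 2.27-fold and 2.57-fold in the second line. The other 3 members were barely detected: RIMS1 had 0 to 0.224 FPKM, ERC2 0.00674 to 0.157 and PPFIA2 0 to 0.0273 over the 12 libraries. The role group summed to 3.11 ± 0.343 FPKM in SK-N-SH control, 26.9 ± 1.01 in SK-N-SH knockdown, 26.9 ± 0.461 in second line control and 3.13 ± 0.188 in second line knockdown (SD, n = 3), with RIMBP2 the largest part where it was high.

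The 2 tested genes of vesicle retrieval rose in SK-N-SH (beside 40.7% of all genes tested) and fell in the second line (beside 40.2%), by 1.31 to 1.65-fold. DNM1, the neuronal dynamin that cuts vesicles from the membrane, stood at 7.84, 7.35 and 8.12 FPKM in control and 10.6, 9.68 and 10.3 in knockdown libraries of SK-N-SH, and at 10.8, 10.9 and 10.8 in control and 6.77, 7.00 and 5.93 in knockdown libraries of the second line. It rose 1.31-fold in SK-N-SH and fell 1.65-fold in the second line. SYNJ1, the lipid phosphatase that uncoats them, stood at 1.84, 2.04 and 2.02 FPKM in control and 2.71, 2.74 and 2.61 in knockdown libraries of SK-N-SH, and at 2.96, 2.86 and 3.23 in control and 1.90, 2.18 and 2.54 in knockdown libraries of the second line, 1.36-fold higher and 1.37-fold lower. Their libraries did not overlap within either line. AMPH and SH3GL2, the neuronal amphiphysin and endophilin, stayed at or below 0.0452 and 0.107 FPKM in every library.

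**Figure D3:**
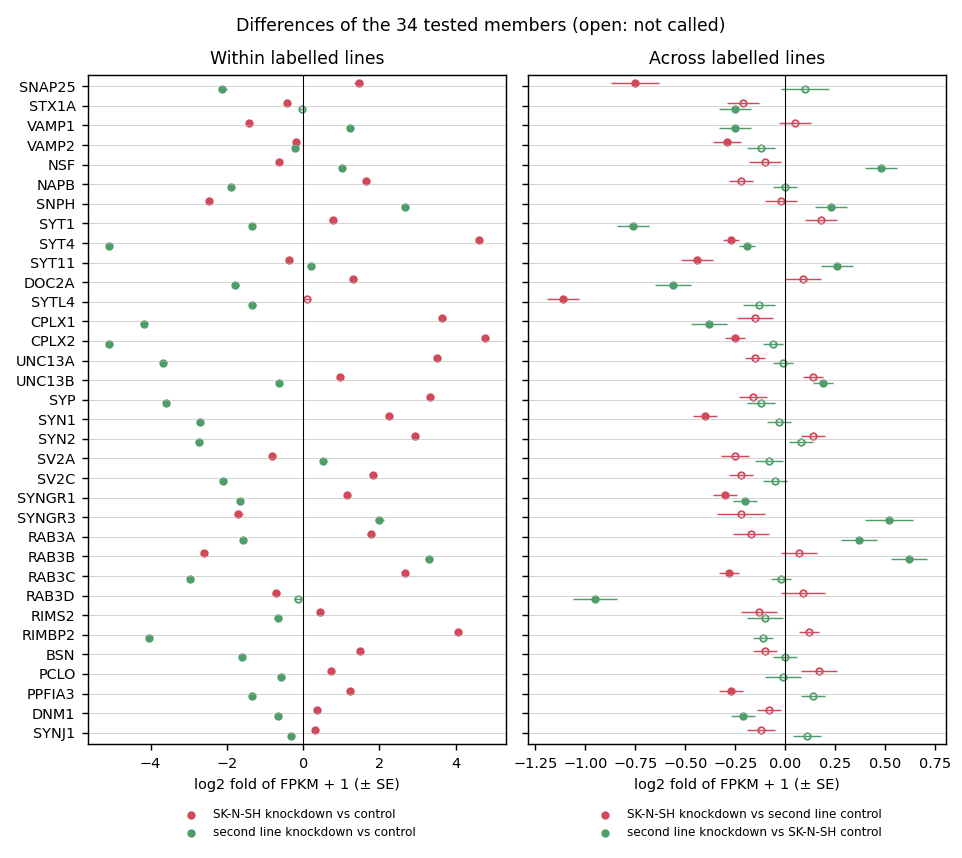
Log2 fold of FPKM + 1 with its SE for the 34 tested members, on the left for knockdown against control within each labelled line and on the right for the comparisons across lines, which have a narrower axis; filled points were called by limma at an adjusted p under 0.05. The within-line folds mirror each other around 0 for most members, from -5.09 for CPLX2 in the second line to 4.78 for CPLX2 in SK-N-SH, and the folds across lines lie between -1.11 (SYTL4) and 0.62 (RAB3B).

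Second line control and SK-N-SH knockdown, the groups with similar profiles, still differed in part of the machinery. Of the 34 tested members, 10 were lower in SK-N-SH knockdown (29.4% of them, beside 3.12% of all genes tested). None was called higher by limma at an adjusted p under 0.05 (beside 2.26% of all genes), while 4 were at an unadjusted p under 0.05 and 0 by voom on the recovered reads. The median log2 fold was -0.16, beside 0.00 over all genes. The lower count was 5 with a pseudocount of 0.1, 5 without SK-N-SH knockdown replicate 2 and 6 without second line control replicate 2. SYTL4 differed most, 4.57-fold (log2 fold -1.11 ± 0.08, limma adjusted p = 2.79e-05), then SNAP25, 1.71-fold (-0.75 ± 0.12, limma adjusted p = 0.00361). SYTL4 passed the level limit only through second line control, so it had to differ here and counts among the 10 only as a description. SYT11 was 1.37-fold lower, SYN1 1.40-fold and SYNGR1 1.27-fold. The libraries of these 5 genes did not overlap between the groups, but the genes were picked for the size of their folds, so this is no further evidence. The others called were VAMP2, SYT4, CPLX2, RAB3C and PPFIA3, by 1.20 to 1.25-fold.

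Several of these smaller calls lay near the threshold and were lost when any 1 of several libraries was left out. CPLX2 was lost without SK-N-SH knockdown replicate 1 or 2 or second line control replicate 1 or 2 (limma adjusted p = 0.0618 to 0.0832), RAB3C without SK-N-SH knockdown replicate 1 or 2 or second line control replicate 3 (0.0611 to 0.0694), and SYNGR1 without SK-N-SH knockdown replicate 2 or second line control replicate 1 or 2 (0.0795 to 0.0863). PPFIA3 was lost without any 1 of the 3 SK-N-SH knockdown libraries or second line control replicate 2 or 3 (0.0515 to 0.0779), and VAMP2 without any 1 of the 3 second line control libraries or SK-N-SH knockdown replicate 2 or 3 (0.0583 to 0.109). SYT4, SYN1, CPLX2, RAB3C and PPFIA3 were lost with a pseudocount of 0.1 (limma adjusted p = 0.120, 0.109, 0.283, 0.166 and 0.0616). CPLX2 was also lost with only the groups compared fitted (0.0603). SNAP25 and SYT11 passed under each alternative that tested them, as did SYTL4, which had to differ through the level limit.

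Between SK-N-SH control and second line knockdown 16 of 34 members were called, in total a share near that of all genes tested. Of the 16 members, 7 were higher in second line knockdown (20.6% of the tested members, beside 26.9% of all genes) and 9 lower (26.5%, beside 17.2%). The median log2 fold of the tested members was -0.04, beside 0.02 over all genes. The split over all genes depended on scaling: 4261 higher and 2735 lower as deposited, 2559 and 3911 with each library scaled to an equal sum, and 2812 and 4165 with upper quartile scaling. The members' higher count was 4 under either of these scalings and 3 with only the 2 groups fitted. Their lower count was 11 under either scaling, with VAMP2 and SV2A gained, 12 with a pseudocount of 0.1, 13 by voom and 6 with only the 2 groups fitted. RAB3D was 2.47-fold lower (log2 fold -0.95 ± 0.11, limma adjusted p = 7.30e-05), SYT1 1.79-fold lower (-0.76 ± 0.08, limma adjusted p = 2.95e-05) and DOC2A 2.61-fold lower (-0.56 ± 0.09, limma adjusted p = 0.000539). RAB3B was 1.61-fold higher (0.62 ± 0.09, limma adjusted p = 0.000289) and SYNGR3 1.55-fold higher (0.52 ± 0.12, limma adjusted p = 0.00475). The libraries of these 5 genes, also picked for the size of their folds, did not overlap, which is no further evidence. SYNGR3 was lost with a pseudocount of 0.1 (limma adjusted p = 0.0605).

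NSF, SNPH, SYT11, UNC13B and RAB3A were the other members higher in second line knockdown, and STX1A, VAMP1, SYT4, CPLX1, SYNGR1 and DNM1 the others lower. SNPH, SYT11 and UNC13B were not called under scaling to an equal sum (log2 fold 0.11, 0.12 and 0.09) or to the upper quartile (0.12, 0.13 and 0.09). With a replicate block SNPH was lost (limma adjusted p = 0.0503) and PPFIA3 was called higher (0.0401). SNPH was also lost without SK-N-SH control replicate 1 or 3 or second line knockdown replicate 1 or 3 (limma adjusted p = 0.0853 to 0.105), SYT11 without replicate 2 or 3 of either group (0.0568 to 0.0817) and VAMP1 without SK-N-SH control replicate 1 or second line knockdown replicate 1 or 3 (0.0554 to 0.0824). SYNGR1 was lost without SK-N-SH control replicate 1 or 2 or any 1 of the second line knockdown libraries (0.0518 to 0.101), STX1A without SK-N-SH control replicate 2 or second line knockdown replicate 1 (log2 fold -0.24 and -0.16), and DNM1 without SK-N-SH control replicate 3 (-0.19). Between the groups compared across lines, 11 members were called in neither comparison: NAPB, UNC13A, SYP, SYN2, SV2A, SV2C, RIMS2, RIMBP2, BSN, PCLO and SYNJ1. A p above the threshold does not show that their levels were equal, and 4 of them were called lower under some alternatives. RIMBP2, at 45 reads against 0, was called lower in second line knockdown than in SK-N-SH control with a pseudocount of 0.1, by voom and with only the 2 groups fitted (limma adjusted p = 0.000129, 1.80e-05 and 0.0125). SV2C was called lower there with a pseudocount of 0.1 and by voom (0.0333 and 0.000584), and SV2A with equal sums and upper quartile scaling (0.0152 and 0.0294). In SK-N-SH knockdown compared with second line control, voom called NAPB, SV2A and SV2C lower (0.0481, 0.0434 and 0.0238). SV2A was also called there with equal sums (0.0321) and without SK-N-SH knockdown replicate 3 (0.0345), and NAPB without second line knockdown replicate 1 (0.0464).

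Between the control libraries of the 2 lines, 24 of 34 members were higher in the second line (70.6% of them, beside 40.7% of all genes) and 8 lower (23.5%, beside 38.9%), with a median log2 fold of 1.21 beside 0.02. This comparison shares a group with each of those above, so its values stand beside theirs and are no further evidence. SNAP25 was 5.06-fold higher in second line control, SYP 29.7-fold, CPLX2 777-fold and UNC13A 243-fold. VAMP1 was 3.83-fold lower, SYNGR3 6.02-fold, RAB3B 16.8-fold and SNPH 46.0-fold. CPLX2 and UNC13A had 17 and 32 reads over SK-N-SH control, and SNPH 32 over second line control. Members near 0 in either group, such as these, passed the level limit only through other groups and had to differ. SYTL4 passed it only through second line control. The counts of this comparison are therefore a description. VAMP2 and SYT11 were not called (log2 fold 0.10 ± 0.07 and 0.06 ± 0.08). STX1A, 1.19-fold lower, lost its call without SK-N-SH control replicate 2 or second line control replicate 1 or 3 (log2 fold -0.21, -0.19 and -0.17).

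Several members have a relative that does the same step in other cells, and the log2 ratio of their FPKM shows which form was the more abundant in each library. SNAP25 exceeded SNAP23, which serves constitutive and non-neuronal fusion, in every library, with a mean log2 ratio of 1.07 in SK-N-SH control, 3.47 in SK-N-SH knockdown, 4.66 in second line control and 1.22 in second line knockdown. SYP was far below its relative SYPL1 in SK-N-SH control (-6.24) and second line knockdown (-6.73), and near it in second line control (0.34) and SK-N-SH knockdown (-0.20). STX1A against STX4 went from -1.21 and -1.72 in the same low groups to 0.20 and 0.40, a shift carried by STX4, which averaged 13.4 and 15.6 FPKM there and 3.58 and 3.71 in the other groups. VAMP2 against VAMP3 was at -1.76, -0.95, -0.48 and -2.35 in the order of the groups above, with VAMP3 at 46.5, 23.0, 20.6 and 63.9 FPKM. NAPB against NAPA was -1.97, 0.15, 0.32 and -2.32, and here NAPA stayed between 5.37 and 6.75 FPKM in mean. SYNJ1 against SYNJ2 was -1.53, 1.06, 1.28 and -1.15. DNM1 stayed a little below DNM2 throughout (-0.25, -0.37, -0.28 and -0.76), and ERC2 stayed far below ERC1 (-8.30 to -6.10). PPFIA3 was below PPFIA1 in every group (-1.72, -0.79, -0.54 and -1.60) and SYNGR3 below SYNGR2 (-2.69, -4.11, -3.21 and -2.86). UNC13A exceeded UNC13D in second line control (7.18) and SK-N-SH knockdown (7.23) and not on average in the other groups (-2.36 and -0.23), where both were low. UNC13D stayed at or below 0.290 FPKM in every library, so this pair sets UNC13A against a barely detected gene. AMPH and SH3GL2 had libraries with no read, and their relatives BIN1 and SH3GL1 averaged 5.68 to 21.3 and 27.0 to 34.8 FPKM.

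**Figure D4:**
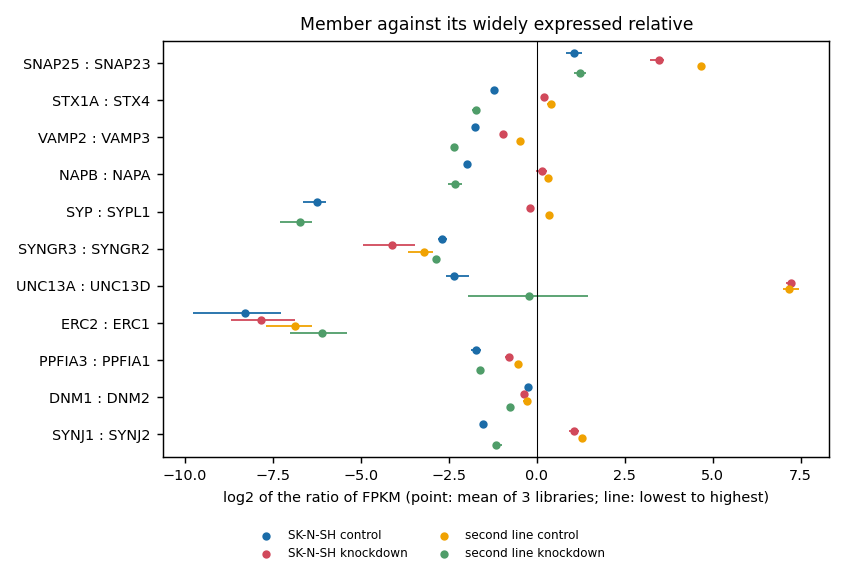
Log2 ratio of the FPKM of a member to that of a relative listed as widely expressed, for the 11 pairs in which every library had reads of both. Points are means of 3 libraries and lines run from the lowest to the highest library. UNC13D, the relative of UNC13A, was at most 0.290 FPKM in any library. Ratios of second line control and SK-N-SH knockdown lie to the right of the other groups for SNAP25, STX1A, VAMP2, NAPB, SYP, UNC13A, PPFIA3 and SYNJ1, and not for SYNGR3, DNM1 or ERC2.

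Counted by level, 5 members were at 10 FPKM or more in SK-N-SH control and in second line knockdown, and 13 in each of the other 2 groups. Members under 0.5 FPKM numbered 19 in SK-N-SH control, 10 in SK-N-SH knockdown, 7 in second line control and 22 in second line knockdown. No read of CPLX2, RAB3C, RIMBP2, SV2B, PPFIA2, AMPH or SH3GL2 was counted in any second line knockdown library. The sum over all 42 members was 185 ± 2.52, 324 ± 6.71, 384 ± 7.32 and 193 ± 7.86 FPKM (SD, n = 3) in the order SK-N-SH control, SK-N-SH knockdown, second line control and second line knockdown.

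Of 85 further genes of vesicle fusion and recycling, 65 were tested. Under knockdown in SK-N-SH 22 rose (33.8% of them, beside 40.7% of all genes tested) and 31 fell (47.7%, beside 39.0%). In the second line 35 rose (53.8%, beside 39.9%) and 25 fell (38.5%, beside 40.2%). Several of these shares are near those of all genes. Of 27 other synaptic and regulated secretion genes 17 were tested: 10 rose (58.8%) and 6 fell (35.3%) in SK-N-SH, and 5 rose (29.4%) and 10 fell (58.8%) in the second line. RIMS3 and RIMS4, short RIM proteins of the active zone, had the largest log2 folds of FPKM + 1 among them, and by mean FPKM rose 34.9-fold and 285-fold in SK-N-SH and fell 20.6-fold and 1031-fold in the second line. The folds of RIMS4 rest on 19 reads over SK-N-SH control and 5 over second line knockdown. Of 30 widely expressed relatives 27 were tested: 5 rose (18.5%) and 17 fell (63.0%) in SK-N-SH, and 19 rose (70.4%) and 6 fell (22.2%) in the second line. SYTL2 and VAMP7 had the largest log2 folds of FPKM + 1 here. SYTL2, a RAB27 effector, fell 52.6-fold and rose 70.7-fold, and VAMP7, a lysosomal and exocytic SNARE, fell 5.07-fold and rose 8.48-fold.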

How the data were processed

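Total RNA of the 12 libraries was made into sequencing libraries from 3 µg with a NEBNext Ultra kit, per the labels' protocols. The authors deposited FPKM per gene and library; HISAT2 2.0.5, featureCounts 1.5.0-p3 and mm10 are listed per the submitters' processing notes, although all 58735 genes are human and start and end where GENCODE release 29 places them on GRCh38. No source used here says whether strand was used in counting, so overlapping antisense genes cannot be told apart. FPKM times length was a whole multiple of 1 step for 100% of values (tolerance 0.05 reads), which gave whole reads, and showed that the authors' FPKM were scaled in proportion to median-of-ratios size factors.

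Log2(FPKM + 1) was fitted with limma 3.58.1 in R 4.3.3, as 4 group means over all 12 libraries, with empirical Bayes and a trend, for genes with a mean of at least 0.5 FPKM. P-values are two-sided, Benjamini-Hochberg adjusted within each of 6 comparisons, with a threshold of 0.05. This scale understates differences of low genes, so folds are ratios of mean FPKM. A group with 0 reads was given a floor of 3 reads over the group, and no fold is given against 1 to 3 reads. Floors cover counting error only. The fit was also run on simulated reads, in which far fewer genes changed than were called within the labelled lines. That run does not measure the rate of false calls in these data.

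Members and gene lists were chosen with earlier results of these data known. Groups come from titles and genotype labels. Values in every library are given for the 2 highest members of each role group, the 2 with the largest fold in each within-line comparison, members against the majority or not called there, and the 5 with the largest called fold in each comparison across lines. CPLX1, UNC13A, UNC13B, RIMS2, PCLO and SV2C, which that rule leaves out, are given by range or fold. Of other lists, the 2 with the largest called fold per within-line comparison are named. Folds in these rules are log2 folds of FPKM + 1, which rank low genes below their ratio of mean FPKM. Alternatives covered pseudocount, level filter, scaling, the groups fitted, a replicate block, voom on whole reads and each library left out.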

Additional observations from a re-analysis of the deposited data

Results flagged for a closer look

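The knockdown effect differed between the labelled lines for 33 of the 34 tested members (limma interaction of label and line, adjusted p under 0.05): the difference, second line effect minus SK-N-SH effect, was positive in 9 (beside 41.8% of all genes tested) and negative in 24 (beside 43.1%), with a median of -2.33 beside -0.03, and VAMP2 was not called (-0.03 ± 0.09 SE). The most negative were CPLX2 (-9.87 ± 0.07 on the log2 scale), SYT4 (-9.71 ± 0.06) and RIMBP2 (-8.11 ± 0.07). The most positive were RAB3B (5.89 ± 0.13), SNPH (5.15 ± 0.11) and SYNGR3 (3.70 ± 0.17). These 6 genes were picked for the size of this difference, so the lack of overlap of their libraries within both lines is no further evidence. TSPYL5 itself was higher under the knockdown label in SK-N-SH, so these differences are between labelled groups. Because levels of most members paired across the labelled lines, opposed differences within the lines add up in this interaction. Members near 0 in 6 libraries, such as CPLX2, SYT4 and RIMBP2, passed the level limit only through the other 6. These counts are therefore a description.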

How the results depend on the processing

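Of 4016 values of single members recomputed under alternatives, 3893 kept their direction and their side of the threshold, 77 lost a call, 23 gained one and 23 changed sign. With a pseudocount of 0.1, 5 members were lower in SK-N-SH knockdown than in second line control, against 10, and 5 to 11 with a library left out. Members higher in second line knockdown than in SK-N-SH control, 7 as reported, numbered 4 with equal sums per library, 4 with upper quartile scaling, 3 with only these groups fitted and 5 to 7 with a library left out. In that comparison SNAP25 became -0.04 and BSN -0.02 with equal sums, and -0.02 and -0.01 with the upper quartile. Ranges with a library left out crossed 0 there for SNAP25 (-0.05 to 0.20), NAPB (-0.06 to 0.05), UNC13A (-0.04 to 0.00), BSN (-0.02 to 0.02) and PCLO (-0.05 to 0.02). They also did for STX1A in the second line (-0.09 to 0.05), for VAMP1 (-0.01 to 0.10) and SNPH (-0.06 to 0.01) in SK-N-SH knockdown compared with second line control, and for VAMP2 in the difference of effects (-0.10 to 0.02). None of these values was called as reported. The cause was not tested. A left-out library leaves 2 in its group, and the spread is pooled over groups. Same-numbered libraries deviated from their group means with r = -0.075 to 0.102, and 0 to 3 of 6 correlated best with their own number, so numbers do not pair them. With a replicate block the members called in SK-N-SH were still 23 higher and 10 lower, and in the second line 6 and 25, with SYT11 lost. It changed no other count of members, but SNPH was lost and PPFIA3 gained for second line knockdown compared with SK-N-SH control. Voom on the whole reads called 6427 genes higher and 6167 lower in SK-N-SH and 6301 and 6330 in the second line. Reads limit low members: 3 reads over second line knockdown equal 0.00800 FPKM of CPLX2.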

Other observations

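The exocyst and the clathrin machinery serve secretion and uptake in all cells. Of 8 exocyst subunits, 2 rose (25.0%, beside 40.7% of all genes tested) and 4 fell (50%, beside 39.0%) under knockdown in SK-N-SH, by limma at an adjusted p under 0.05. In the second line 4 rose (50%, beside 39.9%) and 3 fell (37.5%, beside 40.2%). EXOC4 stood at 8.46, 8.74 and 8.86 FPKM in SK-N-SH control and 18.9, 19.4 and 20 in its knockdown, and EXOC7 at 16.1, 16.7 and 16.4 against 6.69, 6.99 and 7.02. In the second line EXOC4 was 2.48-fold lower and EXOC7 2.14-fold higher under knockdown. The summed exocyst level was 60.3 to 71.9 FPKM in every library.

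Of 12 clathrin coat and adaptor genes, 4 rose and 4 fell in SK-N-SH (33.3% each, beside 40.7% and 39.0% of all genes), and 7 rose (58.3%, beside 39.9%) and 5 fell (41.7%, beside 40.2%) in the second line. SNAP91, the neuronal clathrin assembly protein AP180, was at 22.4 to 25.9 FPKM in second line control and SK-N-SH knockdown, at 0.0402 to 0.105 in SK-N-SH control and without a read in second line knockdown. AP2S1, the small subunit of the AP2 adaptor, was 4.51-fold lower under knockdown in SK-N-SH and 4.96-fold higher in the second line, at 119 to 152 FPKM where high and 23.9 to 31.7 where low. Of 8 vesicular transmitter transporters only SLC18A3, the acetylcholine transporter, reached the level limit, at 1.78 to 2.66 FPKM in second line control and SK-N-SH knockdown and 0.0656 to 0.734 in the other libraries. SLC17A6, a glutamate transporter, had no read in any library.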
